A study of Mus musculus with 4 samples.

Results

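The suppressor of cytokine signalling (SOCS) family has 8 members in the mouse, Cish and Socs1 to Socs7. Their chromatin was read from the ATAC-seq peaks that lay inside the gene record of a member or within 30 kb on either side of it. Peaks of the 4 lists were merged where they shared at least 1 base, and 76 of the 93679 merged regions of the whole series fell at the 8 loci. The members were chosen by name and not by a measured value. ATAC-seq marks open chromatin as DNA that a transposase can enter, and a peak is a stretch with more insertions than the surroundings.

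The study asked how IL-4 acts on the chromatin of T cells that are being turned into regulatory T cells. Naive CD4+ T cells (CD62LhighCD44lowCD25-) came from the spleen of 7-week-old male C57BL/6 mice. All cells received plate-bound anti-CD3 at 5 µg/ml, soluble anti-CD28 at 1 µg/ml, human TGF-β1 at 5 ng/ml and mouse IL-2 at 10 ng/ml for 48 h. The 2 iTreg+PBS libraries had no IL-4 and the 2 iTreg+IL-4 libraries had mouse IL-4 at 15 ng/ml, and each sample was a biologically independent pool. Both groups therefore carried IL-2, itself an activator of the JAK-STAT pathway, so that no group shows these loci without cytokine. The lists held 77064 and 56645 peaks in iTreg+PBS replicates 1 and 2, and 78670 and 67743 peaks in iTreg+IL-4 replicates 1 and 2. The number of reads is unknown, and iTreg+PBS replicate 2 had the shortest list and the lowest median peak height, 32 against 44 to 53 in the others. Of 8 markers of CD4+ T cells, all 8 had a promoter peak in every library, as against 5 of 16 markers of other cell types and 59.9% of protein-coding genes. Of the 16, 8 had none in any library. Cd79a, Csf1r, Adgre1, Lyz2 and Ncr1 were among those 8, while Pax5, Cd14, Cd8b1, Gata1 and Epcam had a promoter peak in all 4 libraries. Ms4a1 had one in 3 libraries, Cd8a in 2 and Klrb1c in 1. The Cd4 promoter peak was weak, since 65.5% to 88.0% of the peaks in the same list had a higher −log10 q. For the other CD4+ T cell markers this share was 2.9% to 23.6%, for Cd8b1 31.5% to 38.8% and for Pax5 12.3% to 18.1%. Accessibility in bulk cells cannot tell a change in every cell from a change in the share of cells that carry it.

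SOCS proteins are feedback inhibitors of cytokine receptors. A cytokine activates JAK kinases on its receptor, the kinases phosphorylate STAT transcription factors, and the STATs switch on several SOCS genes, whose products bind the receptor or the kinase through an SH2 domain and recruit a ubiquitin ligase through the SOCS box. CIS, the product of Cish, and SOCS2 act mainly on receptors that signal through STAT5, while SOCS1 and SOCS3 can also block the JAK kinases directly. SOCS4 to SOCS7 are less tied to cytokine feedback and are better known from growth factor and insulin signalling. STATs bind DNA at an inverted pair of the triplets TTC and GAA, most of them with 3 bases between (TTCNNNGAA) and STAT6, the STAT of the IL-4 receptor, also with 4 (TTCNNNNGAA).

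Of the 8 members, Cish, Socs1, Socs3 and Socs4 had an entry in the RefSeq promoter sequences of GRCm38.p6, which span 250 bases before to 50 after a start site, and a peak covered the whole stretch in all 4 libraries at each of them. Both forms of the motif read the same on either strand. Within these stretches Cish and Socs3 held TTCNNNGAA, while those of Socs1 and Socs4 held neither form. Over the whole promoter region, which is several times longer, Cish held 5 of the 3-base and 2 of the 4-base form. Socs1 held 1 and 3, Socs3 held 2 and 0, and Socs4 held neither. Among the members without an entry, the main promoter region of Socs2 held 3 and 0, Socs7 held 1 and 1, Socs5 held 0 and 1, and Socs6 held neither. No share over all regions of such length is given here. The stretches with the matches are shown because they lie inside the promoter peaks described below, each 5′ to 3′ on the strand of its gene and with the matches in capitals.
Cish, chr9:107296654-107296683, + strand: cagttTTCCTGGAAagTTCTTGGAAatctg
Socs3, chr11:117969502-117969530, - strand: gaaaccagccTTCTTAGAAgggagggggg
The 2 matches of Cish began at offsets of 0 and 11 bases from the RefSeq start site, or -51 and -40 bases from the nearest GENCODE start (minus is upstream), and lay in a UTR exon of longer Cish transcripts. The match of Socs3 began at -154 bases from the RefSeq start and -69 from the nearest GENCODE start, within an intron of longer transcripts. Among the 32851 promoters in the RefSeq set, 8.30% held TTCNNNGAA, 0.457% held it at least 2 times as Cish did, and 6.95% held TTCNNNNGAA.

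In the 200 central bases of the regions, TTCNNNGAA occurred in 10 of the 76 SOCS regions (13.2%) and in 8.46% of all merged regions, and TTCNNNNGAA occurred in 6 (7.89%) and in 5.84%. In distal regions, with no start site of any gene within 1 kb, the shares were 9 of 56 (16.1%) against 9.42% for the 3-base form and 4 of 56 (7.14%) against 6.45% for the 4-base form. Distances here run from the 5′ end of the gene record to the centre of the region, in the direction of transcription. A match of letters is a description of the sequence and not a bound site. The following distal stretches, called in all 4 libraries, are shown because they belong to the strongest distal peaks of Socs1 and Cish and to the Cish region that ranked better with IL-4. They were chosen after their values and matches were seen. The strongest distal regions of Socs3 and Socs2 held no match of either form, and the other 5 distal regions that ranked better with IL-4 held none in their 200 central bases. The stretches are given on the + strand of GRCm38 with matches in capitals.
Socs1, 13.2 kb downstream, chr16:10772326-10772385: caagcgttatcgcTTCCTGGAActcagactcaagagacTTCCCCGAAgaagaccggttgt
Cish, 17.0 kb downstream, chr9:107312990-107313049: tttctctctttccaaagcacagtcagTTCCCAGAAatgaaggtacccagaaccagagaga
Cish, 11.9 kb downstream, chr9:107307865-107308064: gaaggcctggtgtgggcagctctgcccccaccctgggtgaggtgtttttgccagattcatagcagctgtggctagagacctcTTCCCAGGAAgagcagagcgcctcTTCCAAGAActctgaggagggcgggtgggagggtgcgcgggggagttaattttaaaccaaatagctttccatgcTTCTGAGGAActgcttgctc
The Socs1 stretch held 2 matches of the 3-base form, and the Cish stretch 17.0 kb downstream held 1. The Cish stretch 11.9 kb downstream held 1 match of the 3-base form between 2 of the 4-base form. All 3 stretches were intergenic.

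With IL-4 in the culture, 3 regions had a peak in each library that none of the libraries without IL-4 had, one each at Cish, Socs2 and Socs7, and they are shown on the + strand of GRCm38, the Cish one by its 300 central bases.
Cish, 25.9 kb upstream, chr9:107269929-107270228: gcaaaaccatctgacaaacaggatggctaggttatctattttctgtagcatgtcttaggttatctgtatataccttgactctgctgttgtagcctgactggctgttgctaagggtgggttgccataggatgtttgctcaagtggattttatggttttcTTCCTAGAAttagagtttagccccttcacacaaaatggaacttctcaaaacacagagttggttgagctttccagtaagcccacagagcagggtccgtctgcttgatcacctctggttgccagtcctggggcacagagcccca
Socs2, 23.6 kb upstream, chr10:95440681-95440879: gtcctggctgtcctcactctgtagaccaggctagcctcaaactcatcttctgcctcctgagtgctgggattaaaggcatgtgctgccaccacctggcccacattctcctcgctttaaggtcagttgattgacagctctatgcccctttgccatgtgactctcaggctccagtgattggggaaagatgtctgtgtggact
Socs7, 45.8 kb downstream, chr11:97408212-97408486: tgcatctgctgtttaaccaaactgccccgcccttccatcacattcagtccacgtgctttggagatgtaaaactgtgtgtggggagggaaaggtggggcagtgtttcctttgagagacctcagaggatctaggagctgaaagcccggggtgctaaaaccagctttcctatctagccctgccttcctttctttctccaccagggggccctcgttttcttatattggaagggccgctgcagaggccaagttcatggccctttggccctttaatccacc
The Cish region lay in an intron of the neighbouring gene Mapkapk3 and held 1 TTCNNNGAA, in capitals, while the other two were intergenic and held neither form. In the reference, 46.2% of the Socs2 region was marked as repeat, against 16.6% of the Cish region, 9.80% of the Socs7 region and a median of 13.1% over all distal regions.

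All 3 of these regions were weak. A peak is described here by its rank, the percentage of peaks in the same list with a higher −log10 q, so that 0 is the strongest. The Cish region stood at 71.4% and 85.4% in iTreg+IL-4 replicates 1 and 2, with heights of 33 and 19. Heights are not scaled for depth and cannot be compared between libraries. The Socs2 region stood at 76.9% and 63.2%, with heights of 28 and 30. The Socs7 region stood at 69.2% and 48.3%, with heights of 37 and 46, so the Socs7 peak in replicate 2 was the only one of the 6 in the stronger part of its list. They made up 3.95% of the 76 SOCS regions, against 2.60% of all regions, and 3 of the 56 distal SOCS regions (5.36%), against 3.01% of all distal regions. When only the upper 50% of each list was kept none was left, and with lists of equal length 1 was left. Without iTreg+PBS replicate 1 the count was 7, and without iTreg+IL-4 replicate 1 or 2 it was 6. The reverse pattern, a peak in each iTreg+PBS library alone, was found at 0 SOCS regions, against 0.699% of all regions. That count was 7 without iTreg+PBS replicate 2 and 1 without iTreg+PBS replicate 1. The shares over all regions belong to the full lists of all 4 libraries. None is given for the alternatives, whose counts cannot be read as particular to the SOCS loci.

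Most of the SOCS chromatin that was open was open in both conditions. Of the 76 regions, 49 (64.5%) were called in all 4 libraries, against 51.0% of all merged regions, and of the 56 distal ones 30 (53.6%), against 43.7%. The remaining regions were 14 in a single library, 9 in 2 libraries and 4 in 3 libraries, and each of the 4 was missing from iTreg+PBS replicate 2. iTreg+PBS replicates 1 and 2 called 66 and 50 of the 76 regions (86.8% and 65.8%), and iTreg+IL-4 replicates 1 and 2 called 65 and 59 (85.5% and 77.6%). Over all merged regions these shares were 81.2%, 58.9%, 82.9% and 71.1%, in the same order of libraries apart from the replicate 1 lists. Of the SOCS regions, 6 (7.89%) were called in both replicate 1 libraries and in no other, against 7.60% of all regions. In both replicate 2 libraries alone 0 were called, against 0.480%. By position, 10 regions lay within 1 kb of a start site of a member, 10 at a start site of another gene and 56 were distal, and all 10 promoter regions were called in every library.

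**Figure D1:**
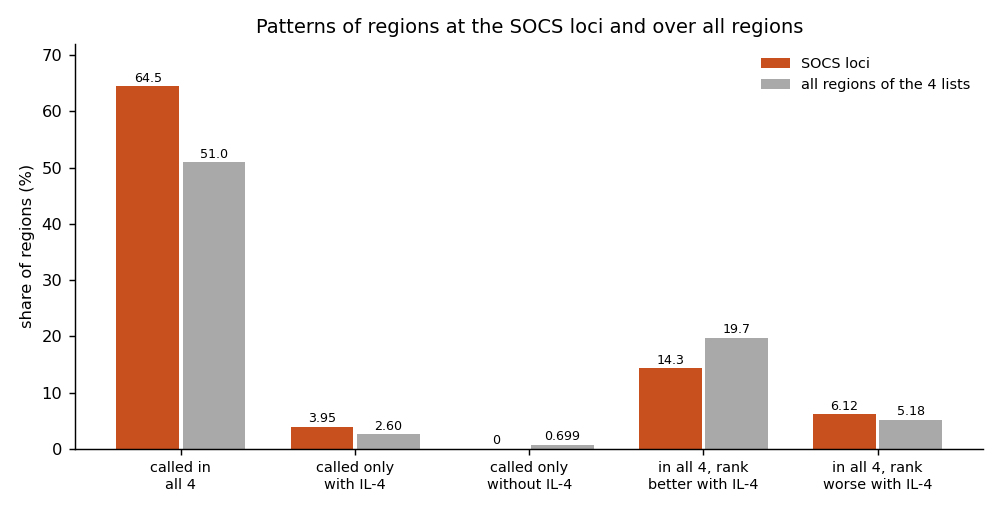
Share of regions with each pattern of calls (y axis, %), at the 76 SOCS regions (orange) and over all 93679 merged regions (grey), with the last 2 pairs of bars as shares of the regions called in all 4 libraries (49 and 47767). SOCS regions were called in all 4 libraries in 64.5%, against 51.0%.

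The loci differed widely in how many regions they held for their length. Socs3, with 17 regions, had 26.6 regions per 100 kb of its window, Cish with 15 had 22.5 and Socs1 with 13 had 20.5. The median over 21938 protein-coding genes was 6.70, and 99.8%, 99.1% and 98.2% of them had a lower density than Socs3, Cish and Socs1. These 3 genes have short records, so that most of their windows is flank. Socs2 had 10 regions (10.9 per 100 kb), Socs7 had 9 (9.38), Socs4 had 4 (5.05) and Socs5 had 3 (3.33). Socs6, whose record is by far the longest of the family, had 5 (1.55), and 20.9% of protein-coding genes had a lower density.

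**Figure D2:**
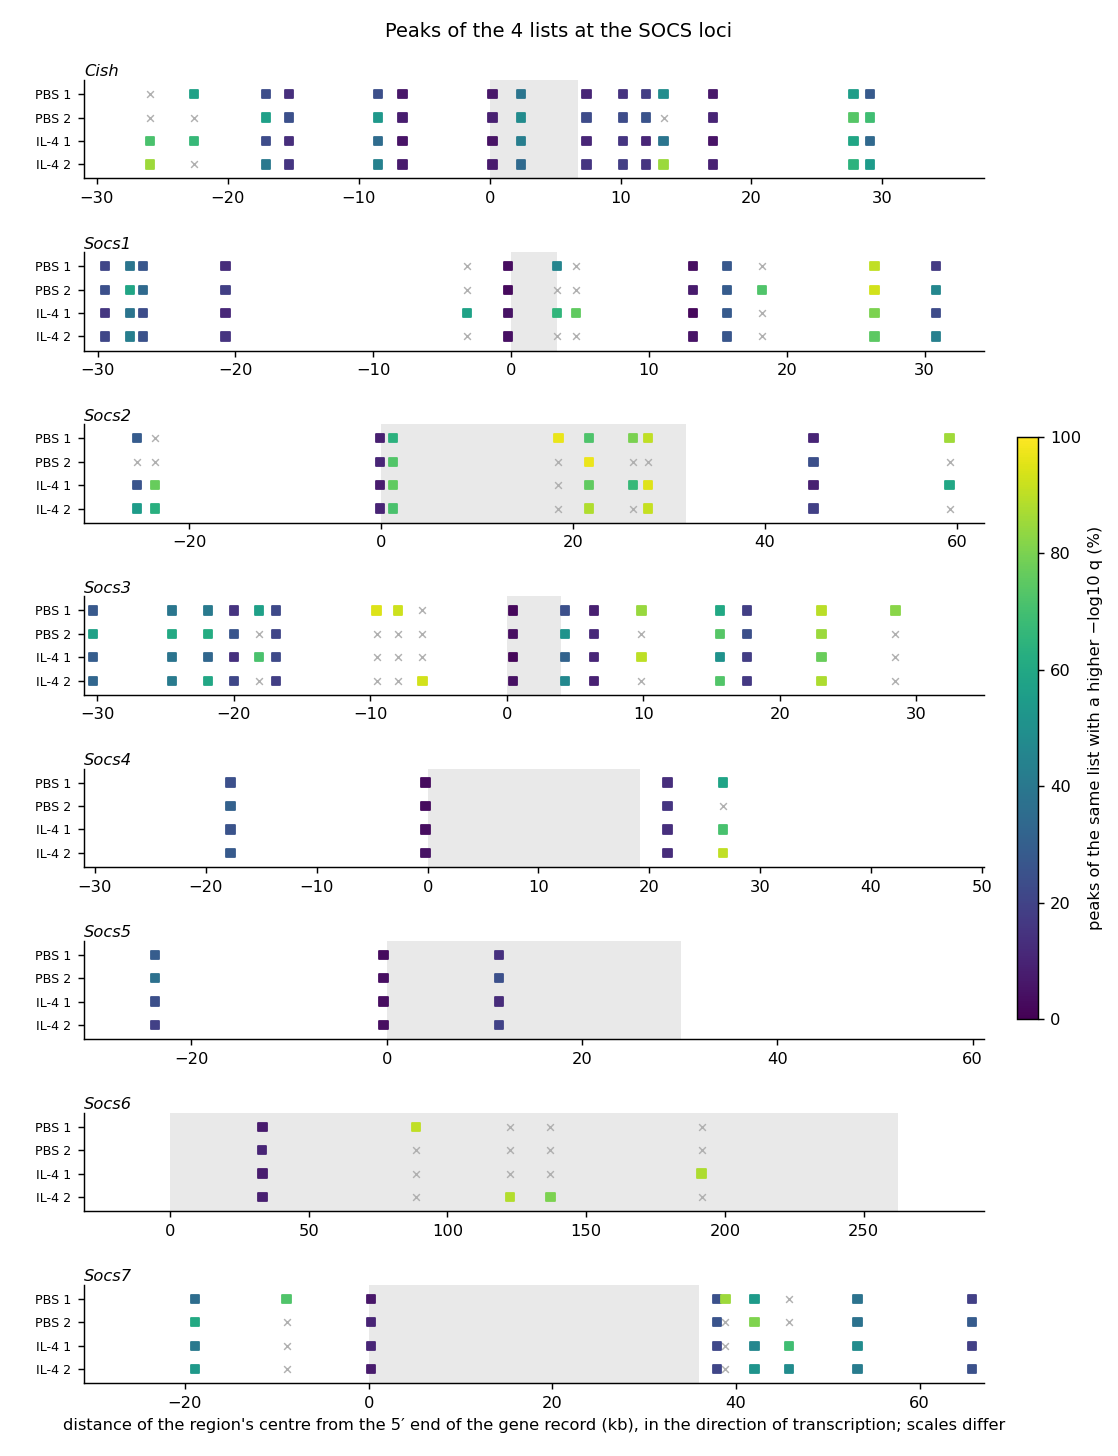
Regions at the 8 loci by the distance of their centre from the 5′ end of the gene record (x axis, kb, scales differ between panels), with 1 row for each library (PBS 1 and 2 are the iTreg+PBS replicates, IL-4 1 and 2 the iTreg+IL-4 replicates), squares for called peaks coloured by rank (dark is strong), grey crosses for no peak in that library and grey bands for the gene records. Cish, Socs1, Socs2, Socs3, Socs4 and Socs7 carry regions on both sides of the gene, and Socs6 has 1 region called in all 4 libraries.

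The bases inside peaks did not separate the conditions. Over the 8 loci together, 41225 and 31344 bases lay inside peaks in iTreg+PBS replicates 1 and 2, and 43594 and 36547 in iTreg+IL-4 replicates 1 and 2. The means were 36284.5 ± 6990 and 40070.5 ± 4980 bases (SD, n = 2 each), and the groups overlapped (difference 3786 bases, exact two-sided permutation test p = 0.667, where the smallest p that 2 libraries against 2 allow is 0.33). Without iTreg+PBS replicate 1 or 2 the difference was 8726.5 or -1154.5 bases, and without iTreg+IL-4 replicate 1 or 2 it was 262.5 or 7309.5 bases. As a share of all bases in the list, the loci took 0.101% and 0.107% without IL-4 and 0.104% and 0.102% with it.

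**Figure D3:**
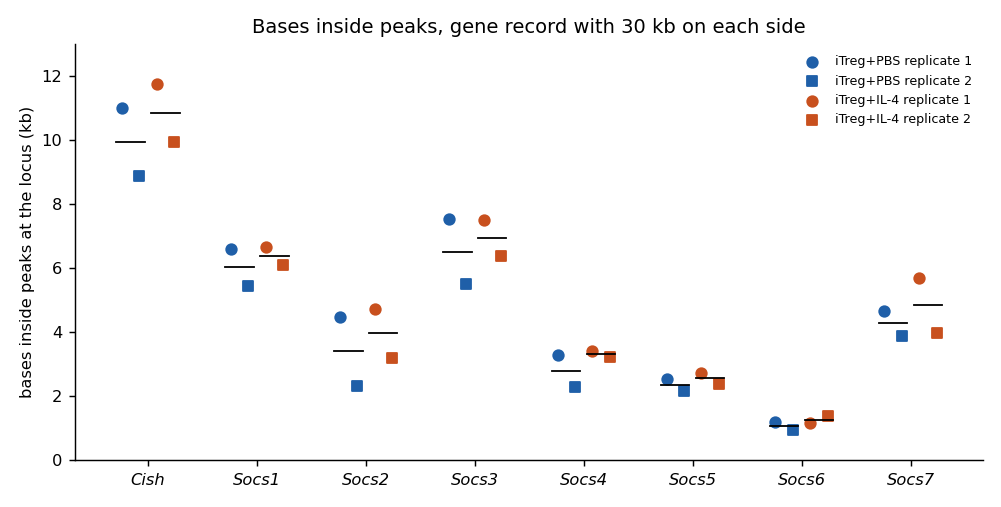
Bases inside peaks (y axis, kb) at each locus with 30 kb on each side, in the iTreg+PBS (blue) and iTreg+IL-4 (orange) libraries, with circles for replicate 1, squares for replicate 2 and black lines for group means. The means with IL-4 lie above those without at all 8 loci, but the groups overlap at all 8, and iTreg+PBS replicate 2 is the lowest library at all 8.

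Every member had a promoter peak, within 1 kb of a start site, in all 4 libraries, and so had 59.9% of protein-coding genes. These peaks were strong. The mean rank over the 4 libraries ranged from 3.04% for Socs3 to 9.13% for Socs2 with a median of 5.2%, against a median of 10.5% over the 13148 protein-coding promoters called in all 4 libraries. The order was Socs3 (3.04%), Socs5 (3.38%), Socs1 (3.61%), Socs4 (3.63%), Cish (6.71%), Socs7 (8.36%), Socs6 (8.42%) and Socs2 (9.13%). The ranges of neighbours in this order overlapped everywhere except between Socs4, at most 4.86%, and Cish, at least 4.89%. Among the called promoters of protein-coding genes, 16.6% had a better mean rank than that of Socs3 and 44.9% a better one than that of Socs2.

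**Figure D4:**
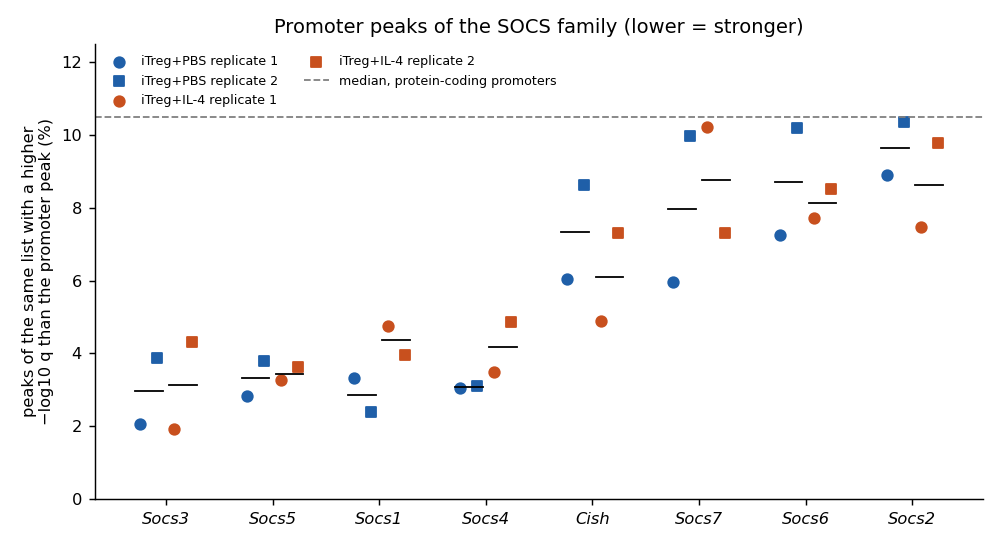
Rank of the best promoter peak of each member (y axis, % of peaks in the same list with a higher −log10 q, so lower is stronger) in the iTreg+PBS (blue) and iTreg+IL-4 (orange) libraries, with circles for replicate 1, squares for replicate 2, black lines for group means and a dashed line at the median of protein-coding promoters (10.5%). Socs3, Socs5, Socs1 and Socs4 stay at or below 4.86% in every library, and the groups are apart at Socs1 and Socs4.

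Socs1, whose product binds and blocks JAK kinases, was one of the members whose promoter ranked lower with IL-4. Its region at chr16:10784897-10786618 stood at 3.33% and 2.40% in iTreg+PBS replicates 1 and 2, and at 4.75% and 3.96% in iTreg+IL-4 replicates 1 and 2. Both libraries with IL-4 were weaker in rank than both without it (means 2.86% ± 0.657 and 4.36% ± 0.560, SD, n = 2 each, difference 1.49 points, exact two-sided permutation test p = 0.333, the smallest possible). By height the difference was only 0.05 points, since 0.38% to 0.51% of each list was taller than the Socs1 peak and the groups overlapped. Its heights were 966 and 521 without IL-4 and 833 and 780 with it. The Socs1 promoter thus ranked among the tallest peaks of every list, and its lower rank with IL-4 depended on the measure used.

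Socs4, for which the chromosome 14 region at chr14:47275988-47277489 also holds start sites of Wdhd1 and Gm49150, was the other. It stood at 3.05% and 3.11% without IL-4 and at 3.49% and 4.86% with IL-4, a difference of 1.09 points (means 3.08% ± 0.0368 and 4.17% ± 0.971, SD, n = 2 each, exact permutation test p = 0.333). The groups did not overlap by height either, with a difference of 0.82 points. Since the region is shared between genes, its signal cannot be assigned to Socs4 alone. Of the 8 members, these 2 ranked worse and 0 ranked better with IL-4 without overlap, against 5.61% and 20.0% of the protein-coding promoters called in all 4 libraries.

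Cish, an inhibitor of receptors that signal through STAT5, had its main promoter region at chr9:107295426-107297065, which also lies within 1 kb of a start site of Gm17040, so that its signal cannot be assigned to Cish alone. It stood at 6.04% and 8.62% without IL-4 and at 4.89% and 7.30% with IL-4. Within each condition replicate 2 was the weaker, and the groups overlapped (difference -1.24 points, exact permutation test p = 0.667, 0.06 points without iTreg+PBS replicate 2). By height it stood higher, with 1.09% to 3.36% of the list above it. A smaller second promoter region, chr9:107298160-107298632 in a noncoding exon of Cish, ranked at 34.1% to 47.8%.

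Socs3, which acts on the gp130 receptors of the IL-6 group, had the strongest promoter by mean rank, at chr11:117968863-117970274. It stood at 2.05% and 3.86% without IL-4 and at 1.92% and 4.31% with it, and the groups overlapped (difference 0.16 points, exact permutation test p = 1.00). Socs2, best known as an inhibitor of growth hormone signalling, stood at 8.90% and 10.4% without IL-4 and at 7.47% and 9.77% with it at chr10:95416497-95418089, a region within 1 kb of a start of 5730420D15Rik as well (difference -1.01 points, exact permutation test p = 0.667). A peak lay near 8 of the 12 annotated start sites of Socs2 in every library, and none lay near the other four. For both genes the gap between replicates exceeded the gap between conditions.

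The promoters of Socs5 and Socs7 also overlapped between conditions. Socs5 stood at 2.84% and 3.78% without IL-4 and at 3.26% and 3.63% with it (difference 0.13 points, exact permutation test p = 1.00). Socs7 stood at 5.97% and 9.96% without IL-4 and at 10.2% and 7.31% with it (difference 0.80 points, exact permutation test p = 0.667). Its replicates were thus in opposite order in the conditions. Socs5 has been linked to the IL-4 and epidermal growth factor receptors, and Socs7 to insulin signalling.

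Socs6, an adaptor for receptor tyrosine kinases, stood at 7.25% and 10.2% without IL-4 and at 7.72% and 8.52% with it, and the groups overlapped (difference -0.59 points, exact permutation test p = 1.00). Of its 9 annotated start sites, 6 lay within 1 kb of that peak in every library and 3 had no peak in any library. The other 4 Socs6 regions, all intronic, were each called in 1 library, at ranks between 80.3% and 90.4%.

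Rank was then compared between conditions over the 49 regions called in all 4 libraries. Ranks were better in both iTreg+IL-4 libraries than in either iTreg+PBS library at 7 regions (14.3%), against 19.7% of the 47767 regions called everywhere, and worse at 3 (6.12%), against 5.18%. At the other 39 the groups overlapped. Among the 30 distal regions 6 were better (20.0%, against 19.7% of distal regions) and 0 were worse (against 5.06%). These shares lie close to those over all regions. The median difference in rank was -2.41 points at the SOCS regions and -2.05 points over all regions, but ranks are shares of lists of unequal length, and both iTreg+IL-4 lists were longer than their iTreg+PBS counterparts of the same number. With lists of equal length 5 regions were better and 6 worse, and with ranks among the regions called everywhere 6 were better and 6 worse. The count of better regions was 41 without iTreg+PBS replicate 1, 26 without iTreg+IL-4 replicate 2 and 11 without iTreg+IL-4 replicate 1. The count of worse ones was 20 without iTreg+PBS replicate 2 and 6 without iTreg+IL-4 replicate 2. Shares over all regions are not given for these alternative settings, so the counts cannot be read as particular to the SOCS loci.

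**Figure D5:**
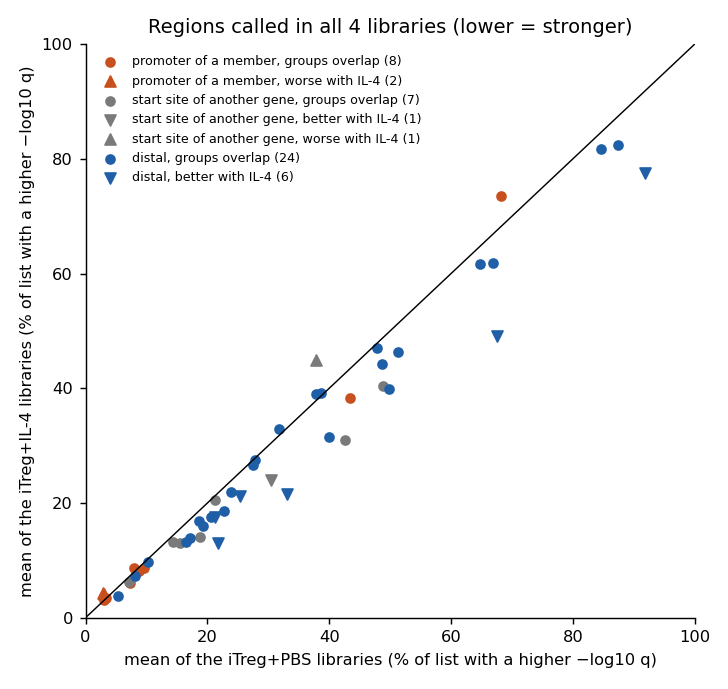
Mean rank of the 49 SOCS regions called in all 4 libraries, in the iTreg+PBS (x axis) and iTreg+IL-4 (y axis) libraries (% of the list with a higher −log10 q), with the line of equality. Colour gives the position of the region, and triangles mark the 7 regions better (pointing down) and the 3 worse (pointing up) with IL-4, while the groups overlap at the other 39.

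The strongest of the 7 was the Cish region 11.9 kb downstream, chr9:107307529-107308400, whose sequence is given above. It stood at 18.2% and 25.4% without IL-4 and at 10.8% and 15.1% with it. By height the ranks were 6.20% and 12.8% without and 2.40% and 6.00% with IL-4, again without overlap, though by a small margin. Its heights were 435 and 146 without IL-4 and 580 and 363 with it. The 3 other regions called everywhere nearest to it downstream of Cish had overlapping groups, among them the strongest, 17.0 kb downstream at 6.30% and 9.80% without and 5.10% and 9.30% with IL-4.

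Of the other 6, the Socs5 region 23.7 kb upstream, intergenic, moved from 29.2% and 36.9% without IL-4 to 24% and 19% with it. The Socs3 region 17.6 kb downstream stood at 18.4% and 24.2% without and at 18.3% and 16.7% with IL-4, so that its groups only just parted. At Socs7, the region 37.9 kb downstream stood at 24.8% and 25.8% without and at 21.5% and 20.8% with IL-4. The Socs7 region 42.0 kb downstream stood at 54.5% and 80.7% without and at 46.3% and 51.9% with it. Both remaining regions were at Socs1, one 26.4 kb downstream at 90.4% and 93.3% without and 80.1% and 74.8% with IL-4, the other at a start site of Gm11172. Besides the Socs1 and Socs4 promoters, the region that ranked worse was the start site of Arhgap23 in the Socs7 window, at 38.2% and 37.5% without and 48.3% and 41.6% with IL-4.

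The strongest distal regions of Socs1, Socs3 and Socs2 had overlapping groups. The Socs1 region 13.2 kb downstream, chr16:10771950-10772702, stood at 3.6% and 7.1% without IL-4 and at 2.3% and 5.4% with it. Its heights were 711 and 270 without and 717 and 474 with IL-4. The Socs3 region 6.4 kb downstream, chr11:117963283-117964061, stood at 8.9% and 11.5% without and at 10.6% and 9% with IL-4. It and the next were weaker in mean rank than the best promoter peak of every member. The Socs2 locus had its strongest distal region 45.1 kb downstream, chr10:95371744-95372466, at 10.2% and 24.2% without and at 8.7% and 19% with IL-4. Over the 30 distal SOCS regions called everywhere the median rank was 27.5%, against 43.6% over all such distal regions.

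The rest of the pathway was also mostly open in every library. Of 39 other genes of JAK-STAT signalling, 37 had a promoter peak in all 4 libraries, against 59.9% of all protein-coding genes. Their median rank was 7.30%, against 10.5% over the protein-coding promoters called in all 4 libraries. They comprised all 4 JAK kinases, all 7 STATs, 10 of 12 receptor chains, all 10 other inhibitors and all 6 partners of the SOCS box. Promoter ranks were better with IL-4 without overlap at 3 of the 37, worse at 2 and overlapping at 32. These are 8.11% and 5.41%, against 20.0% and 5.61% of all protein-coding promoters called in all 4 libraries. Stat6, which carries the IL-4 signal, stood at 12.2% and 16.3% without IL-4 and at 11.9% and 12% with it. Il6st, the gp130 chain that SOCS3 binds, stood at 7.90% and 8.50% without and at 7.50% and 6.70% with it. In both genes the nearest libraries of the conditions lay less than 1 point apart.

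The pathway genes that ranked worse with IL-4 were Ifngr1, a chain of the interferon-gamma receptor, at 2.00% and 2.40% without and 2.70% and 2.90% with IL-4, and the phosphatase gene Ptpn2, at 1.7% and 1.8% without and 2.1% and 3% with it. The 2 genes not called everywhere were receptor chains. Il9r, the receptor chain for IL-9, had a weak promoter peak in 3 libraries, at 68.3% in iTreg+PBS replicate 1 and at 66.7% and 79.9% with IL-4. Il13ra1, a chain that pairs with the IL-4 receptor outside T cells, had a promoter peak at 88.1% in iTreg+PBS replicate 1 and at 99.7% in iTreg+IL-4 replicate 2.

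The protein-coding genes outside the family with the promoter ranks most like a member over the 4 libraries were Tesmin and Frmd4b for Cish, with mean absolute differences of 0.15 and 0.17 points. They were Zbtb14 and Atf2 for Socs1 (0.22 and 0.23 points), Chchd6 and Dcaf12 for Socs2 (0.23 points each), and Farp2 and Sh3bp5 for Socs3 (0.16 and 0.19 points). Such closeness was common, since 485, 455, 385 and 799 of the 13140 genes compared lay within 1 point of Cish, Socs1, Socs2 and Socs3.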

How the data were processed

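ATAC-seq peak lists of 4 libraries were analysed, 2 for each condition, grouped by the treatment named in the labels. The authors sequenced on BGISEQ-500, mapped read pairs to mm10 with Bowtie2 2.2.5 and called peaks in each library with MACS2 2.1.2. bedtools 2.16.2 is also named in the submitters' processing notes, without a role. A shift for the transposase and the removal of duplicates are not given in the sources used here. Each deposited peak carries a −log10 q-value, at least 1.31 in every list, and a height of the signal at its summit, both units being inferred from the values. Neither was scaled between libraries by the authors, so both were used only as ranks within a list, or as heights described side by side. Lists hold no reads, so the depth is unknown and no counting interval is given.

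Members and gene lists were chosen with earlier results of these data known. Gene records and start sites came from GENCODE vM21, sequences from the GRCm38.p6 reference. Named besides the members were pathway genes called in fewer than 4 libraries or without overlap, and for Cish, Socs1, Socs2 and Socs3 the 2 genes with the closest promoter ranks. The values of some genes that this rule names are not reported here. The means of 1 value per library were compared by exact two-sided permutation tests, and the p-values measure only the spread between these samples. Python 3.11.15, pandas 2.3.3, numpy 2.4.6, scipy 1.17.1, pysam 0.24.0, samtools 1.23.1 and matplotlib 3.10.9 were used. The merging, the patterns and the ranks were tested on simulated lists. Alternatives changed the part of each list used, the libraries, the overlap, the flanks, the promoter width, the rank measure, the gene records and the replicate block.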

Additional observations from a re-analysis of the deposited data

How the results depend on the processing

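Of 162 alternative values, 135 stayed within the spread between replicates or within 1.5 times a count, and 27 moved further. Among the 88 promoter rank differences 81 stayed and 7 moved, and among the 74 other values 54 stayed and 20 moved. Some could not move, such as the promoter differences under the replicate block. The difference in bases counted as within the spread even where its sign turned, from 3786 to -1154.5 without iTreg+PBS replicate 2. The count of regions called only with IL-4, 3 with full lists and 30 kb flanks, was 0 in the upper 50% of each list, 1 with lists of equal length, 1 with 10 kb and 5 with 100 kb flanks, and 3 to 7 when 1 library was left out. The count called only without IL-4, 0, became 1 with lists of equal length and ranged from 0 to 7 when a library was left out. Leaving out a library asks fewer libraries to agree. For the alternatives in this paragraph no share over all regions is given, so their counts cannot be read as particular to the SOCS loci. The 49 regions called in all 4 libraries became 24 with 10 kb and 122 with 100 kb flanks, by the size of the window. The count of regions that ranked worse with IL-4, 3, was 6 with lists of equal length and 6 when ranks were taken among the regions called everywhere, an alternative chosen after seeing the data, and ranged from 3 to 20 when a library was left out. The count that ranked better, 7, was 5 in the upper 50% of each list, 5 with lists of equal length, 6 with ranks among the regions called everywhere and 9 by height, and ranged from 8 to 41 when a library was left out.

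Replicate numbers 1 and 2 occur in both conditions, but the labels do not say that a number marks a shared culture or day. Over the regions called everywhere, differences between replicates correlated between the conditions (r = 0.45 across regions, which are not independent), and both replicate 1 lists were the longer ones. With the replicate block, counting regions that moved the same way within both numbers, 24 of the 49 SOCS regions (49.0%) ranked better with IL-4, against 43.4% of all regions called everywhere, and 3 (6.12%) ranked worse, against 12.3%. The block leaves the mean promoter differences as they are by construction, and other promoter widths left those of Socs1 and Socs4 as they were. Over all alternatives the differences of Socs1 and Socs4 ranged from 0.05 to 2.98 and from 0.41 to 2.18 points, and the sign for each other member turned in at least 1. The cause was not tested. With 2 libraries in each group no exact test could pass 0.05, and a peak missing from a list may be open below the caller's threshold.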
